A study of Homo sapiens with 6 samples.

Results

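A group of 10 genes of bone morphogenetic protein (BMP) signalling was followed in a pair of human esophageal squamous cell carcinoma (ESCC) lines. They were the ligand genes BMP2, BMP4 and BMP7, the receptor genes BMPR1A and BMPR2, the inhibitory SMAD gene SMAD6, the target genes ID1, ID2 and ID3, and FST, which encodes the secreted antagonist follistatin. Members were taken by gene symbol from the matrix of normalized counts, which lists 58884 genes, and each of the 10 symbols stood on 1 row. The matrix holds 3 libraries of KYSE450 cells, an ESCC line with wild-type NRF2, and 3 libraries of KEAP1null-KYSE450 cells, a monoclonal line derived from it by CRISPR-Cas9 editing of exon 2 of KEAP1, whose protein marks NRF2 for degradation. Both lines were grown untreated in the same RPMI1640 medium with serum, and total RNA was sequenced. The KEAP1null line is 1 clone, so clonal differences and loss of KEAP1 cannot be told apart in this comparison. The libraries are numbered by their column order within each line, and nothing states that they came from separate cultures, so the p-values measure the spread between these libraries, which may be technical.

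BMPs are secreted dimers of the TGF-beta superfamily. They bring together type I receptors such as BMPR1A and the type II receptor BMPR2, which leads to phosphorylation of SMAD1, SMAD5 and SMAD9, and these enter the nucleus with SMAD4 and switch on ID genes and SMAD6, the latter a feedback inhibitor. ID proteins carry a helix-loop-helix but no DNA-binding region, and they hold E proteins such as those of TCF3, TCF4 and TCF12 away from DNA. In the esophagus, BMP signalling and its antagonists are known for their part in the separation of the foregut and in the stratification and differentiation of the squamous epithelium.

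Library totals lay between 54829313 and 57380170 normalized counts, and 3 reads, taken as the floor of detection, were worth 2.77 to 3.21 normalized counts. The floor covers counting error only. KEAP1 mRNA had 5760, 5226 and 5146 normalized counts in KYSE450 and 5737, 4906 and 5317 in KEAP1null-KYSE450 libraries, which overlap, and since counts per gene do not show an edit, this does not check the label. NQO1, an NRF2 target, was 6.48-fold higher in KEAP1null-KYSE450 cells. NFE2L2, the gene of NRF2 itself, fell by 0.47 on the log2 scale (adjusted p = 6.3e-04 from limma). The log2 fold change of NFE2L2 was -0.27 after quantile normalization, and its adjusted p was 0.058 with edgeR on 4 libraries. NFE2L2 exons overlap those of HNRNPA3 and AGPS on the opposite strand, whose means were also lower in the clone, at 33210 and 25900 normalized counts for HNRNPA3 and 6624 and 4325 for AGPS in KYSE450 and KEAP1null-KYSE450 cells. The 8 squamous markers KRT5, KRT6A, KRT17, TP63, DSG3, DSP, JUP and PERP were all expressed, summing to 389003 to 537890 normalized counts in KYSE450 and 584900 to 732268 in KEAP1null-KYSE450 libraries. KRT5 and DSG3 rose and the other 6 fell by the adjusted p, and KRT6A and KRT17 fell by 4.70 and 4.85 on the log2 scale. Of 6 fibroblast markers only COL1A1 had a mean of at least 10, and the list summed to 621.9 to 853.5 and to 348.8 to 435.8 normalized counts. The 4 endothelial markers summed to at most 74.8 and the 5 immune markers to at most 18.2, with PECAM1 at 0 in all libraries. The part of these marker differences in the results was not tested.

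Of the 10 genes, 2 fell past both thresholds of the study's methods, an adjusted p under 0.05 and a log2 fold change of at least 1, and these were BMP2 and ID3. Without the fold change threshold SMAD6 and FST fell as well, so 4 genes passed the adjusted p and none of them rose. The remaining 6, BMP4, BMP7, BMPR1A, BMPR2, ID1 and ID2, did not pass. Differences on the log2(normalized count + 1) scale were tested by limma for the 16701 genes whose mean reached 10, and p-values were adjusted over all of them by the Benjamini-Hochberg method. Against this background 5.98% of genes tested fell past both thresholds and 12.2% rose, so that 18.2% were called in either direction. By the adjusted p alone 25.5% fell and 24.3% rose, 49.8% together. The split of calls between higher and lower depended on scaling, with 67.2% of called genes higher in the main test and 51.8% after quantile normalization. The median log2 fold change was -0.25 over the 10 genes and 0.004 over all genes tested. Fold changes on this scale understate changes of genes with low counts, and in bulk RNA fewer expressing cells and less RNA per cell cannot be told apart.

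**Figure D1:**
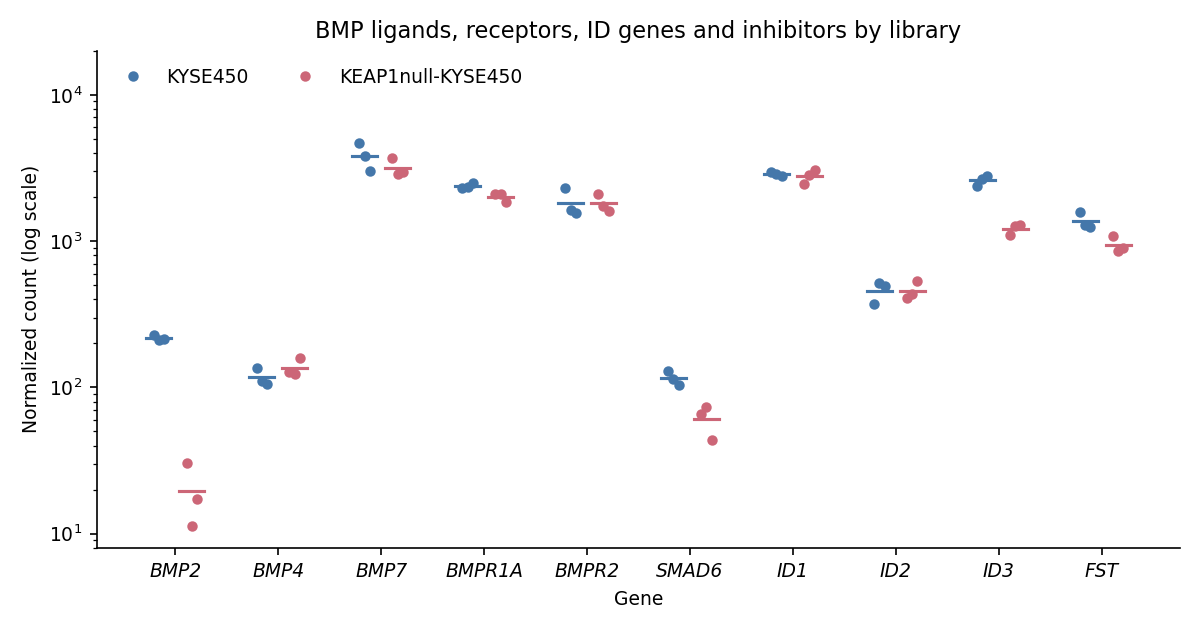
Normalized counts of the 10 genes on a log axis, with 1 point per library (3 per line) and a bar at the mean of each line. BMP2, SMAD6, ID3, FST and BMPR1A libraries of the 2 lines do not overlap, with BMP2 at 211 to 227 in KYSE450 and 11.2 to 30.5 in KEAP1null-KYSE450 cells.

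Among the ligands, BMP2 showed the widest separation. BMP2 (ENSG00000125845) lies on the plus strand of chromosome 20 in hg38, from 6767686 to 6780246, and encodes a ligand that binds BMPR1A with high affinity. BMP2 had 226.7, 211.3 and 212.6 normalized counts in KYSE450 libraries and 30.5, 11.2 and 17.2 in KEAP1null-KYSE450 libraries. Every KEAP1null-KYSE450 library was far below every KYSE450 library, yet above the floor of detection. The mean was 11.1-fold lower, 19.6 ± 9.85 against 216.9 ± 8.58 (SD, n = 3 each), and the log2 fold change was -3.51 with a standard error of 0.33 (limma, adjusted p = 3.4e-06). Its lowest log2 fold change over 17 other settings was -3.93 and its highest -2.99, and BMP2 passed both thresholds in all 17.

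BMP4 and BMP7, the other ligand genes, stayed within the spread of their libraries. BMP4 (ENSG00000125378, minus strand of chromosome 14, 53949736 to 53958761) had 135.8, 111.2 and 105.4 normalized counts in KYSE450 and 128.3, 123.3 and 158.4 in KEAP1null-KYSE450 libraries. The lines overlapped, and the log2 fold change was 0.22 with a 95% interval of -0.24 to 0.67 (adjusted p = 0.41 from limma). BMP7 (ENSG00000101144, minus strand of chromosome 20, 57168753 to 57266641), a ligand of many epithelia, had 4659, 3812 and 3025 normalized counts in KYSE450 and 3695, 2865 and 2945 in KEAP1null-KYSE450 libraries. Library 1 was the highest of each line, and the ranges overlapped. The log2 fold change of BMP7 was -0.26 with a 95% interval of -0.58 to 0.06 (adjusted p = 0.16 from limma). Counted per kilobase of annotated exons, BMP7 was the leading ligand of the 3 in both lines, at 706 ± 151 in KYSE450 and 584 ± 84.4 in KEAP1null-KYSE450 cells (SD, n = 3 each). BMP2 stood at 61.2 ± 2.42 and 5.53 ± 2.78 on the same per-kilobase scale, and BMP4 at 37.9 ± 5.22 and 44.1 ± 6.13. BMP2 thus ranked above BMP4 in KYSE450 and below it in KEAP1null-KYSE450 cells, with no overlap of libraries in either line.

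Neither receptor gene passed the adjusted p. BMPR1A (ENSG00000107779, plus strand of chromosome 10, 86756596 to 86932825), which encodes a type I receptor, had 2323, 2337 and 2482 normalized counts in KYSE450 and 2103, 2092 and 1841 in KEAP1null-KYSE450 libraries. All libraries of the clone were lower, as for SMAD6, BMP2, ID3 and FST. Of all genes tested 29.3% had every library of the clone lower, 28.4% every library higher, and 57.8% one or the other. The log2 fold change of BMPR1A was -0.25 (95% interval -0.46 to -0.03, adjusted p = 0.054 from limma), and the adjusted p ranged from 0.045 to 1 over the other settings. The pseudogenes BMPR1AP1 and BMPR1AP2, on rows of their own, had at most 8.15 and 4.04 normalized counts in any library. BMPR2 (ENSG00000204217, plus strand of chromosome 2, 202376327 to 202567751), the gene of the type II receptor, had 2288, 1639 and 1558 normalized counts in KYSE450 and 2085, 1734 and 1615 in KEAP1null-KYSE450 libraries. The lines lay on top of each other and library 1 was again the highest of each. The 95% interval of the log2 fold change of BMPR2 ran from -0.32 to 0.32.

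SMAD6 (ENSG00000137834, plus strand of chromosome 15, 66702236 to 66782849) encodes an inhibitory SMAD that competes with receptor-activated SMADs. It had 129.4, 114.2 and 103.5 normalized counts in KYSE450 and 65.5, 73.4 and 43.4 in KEAP1null-KYSE450 libraries. The lines did not overlap, and the mean was 1.90-fold lower in the clone. The log2 fold change of SMAD6 was -0.95 with a standard error of 0.26 (limma, adjusted p = 0.0092), just short of the log2 threshold of 1. SMAD6 passed both thresholds without KYSE450 library 3 (-1.02), without KEAP1null-KYSE450 library 1 (-1.02) or 2 (-1.10), and after quantile normalization (-1.33). It did not pass the adjusted p with edgeR (0.12) or DESeq2 (0.16), which used 2 libraries per line.

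Promoter windows are shown for SMAD6 and ID3, the genes with lower mRNA whose window crosses no annotated exon, and for ID4, an ID gene with higher mRNA, as a contrast. Sequences are from RefSeq (GRCh38.p14), cover the 250 bases before the annotated start and are written 5′ to 3′ in the direction of the gene. Capitals mark matches on either strand to TGACNNNGC, a core of the NRF2 recognition motif, GGCGCC, a GC-rich motif of SMAD1 and SMAD5, or GTCTAGAC, the palindrome bound by SMAD3 and SMAD4. The windows are chr15:66701986-66702235 (plus strand) for SMAD6, chr1:23559502-23559751 (minus strand) for ID3 and chr6:19837120-19837369 (plus strand) for ID4.
SMAD6: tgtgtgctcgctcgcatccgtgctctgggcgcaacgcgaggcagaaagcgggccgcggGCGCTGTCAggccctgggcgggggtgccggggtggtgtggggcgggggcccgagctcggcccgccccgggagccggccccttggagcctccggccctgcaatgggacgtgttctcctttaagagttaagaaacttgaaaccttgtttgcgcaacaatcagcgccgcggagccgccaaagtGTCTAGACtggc
ID3: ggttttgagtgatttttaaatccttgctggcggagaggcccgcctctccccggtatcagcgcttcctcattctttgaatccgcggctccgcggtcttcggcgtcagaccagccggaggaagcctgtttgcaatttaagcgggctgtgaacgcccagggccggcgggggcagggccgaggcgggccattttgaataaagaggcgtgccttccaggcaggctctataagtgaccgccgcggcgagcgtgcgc
ID4: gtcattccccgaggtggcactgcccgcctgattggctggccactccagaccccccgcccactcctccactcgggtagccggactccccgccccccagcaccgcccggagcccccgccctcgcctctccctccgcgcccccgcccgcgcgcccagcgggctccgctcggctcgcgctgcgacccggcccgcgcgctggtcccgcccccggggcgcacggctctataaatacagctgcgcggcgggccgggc
The SMAD6 window held GTCTAGAC, starting 12 bases before the start of the gene, and TGACNNNGC on the opposite strand, with its leftmost base 192 bases before the start. The windows of ID3 and ID4 held none of the 3 motifs. Of 34943 RefSeq promoter windows of the same length, 0.183% held GTCTAGAC, 10.9% TGACNNNGC and 16.4% GGCGCC. RefSeq windows were found for 8 of the 10 genes, without BMP2 and BMP7. SMAD6 was the only one of these 8 with GTCTAGAC or TGACNNNGC, while GGCGCC was present for BMPR2 and in 1 of 3 windows of BMP4. CANNTG, the E-box bound by E proteins, was in 61.8% of all windows and in those of BMPR1A, BMPR2, FST, ID2 and ID4, as well as in 1 of 3 windows of BMP4. These matches describe letters in a window and no binding was measured.

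The ID genes, the best known targets of BMP signalling, did not move together. ID3 (ENSG00000117318, minus strand of chromosome 1, 23557926 to 23559501) had 2396, 2666 and 2771 normalized counts in KYSE450 and 1095, 1260 and 1291 in KEAP1null-KYSE450 libraries. The lines were far apart, with each line's libraries close together, and the mean was 2.15-fold lower, 1216 ± 105 against 2611 ± 194 (SD, n = 3 each). The log2 fold change of ID3 was -1.10 with a standard error of 0.11 (limma, adjusted p = 4.6e-06). It lay between -1.16 and -1.01 over 17 other settings and passed in all but the test against a fold change of 2, where its adjusted p was 1.

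Neither ID1 nor ID2 passed the test. ID1 (ENSG00000125968, plus strand of chromosome 20, 31605283 to 31606515) had 2958, 2853 and 2805 normalized counts in KYSE450 and 2470, 2825 and 3065 in KEAP1null-KYSE450 libraries. The values of the clone spread on both sides of those of KYSE450, with a log2 fold change of -0.05 and a 95% interval of -0.27 to 0.17 (adjusted p = 0.72 from limma). ID2 (ENSG00000115738, plus strand of chromosome 2, 8678845 to 8684461) had 369.0, 515.5 and 489.5 normalized counts in KYSE450 and 405.1, 437.3 and 530.7 in KEAP1null-KYSE450 libraries. These ranges overlapped almost entirely, and the 95% interval of the log2 fold change of ID2 ran from -0.35 to 0.36. Exons of ID2 overlap those of ID2-AS1 on the opposite strand, which had a mean of 15.2 and 25.2 normalized counts, and no source says whether reads were counted by strand. The signs for ID1 and ID2 flipped after quantile normalization, at 0.07 and -0.08.

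The ratio of ID1 to ID3 was read within each library, on the per-kilobase scale. It was 1.498, 1.298 and 1.228 in KYSE450 and 2.736, 2.720 and 2.880 in KEAP1null-KYSE450 libraries. ID1 was thus above ID3 in all 6 libraries, by a wider margin in each library of the clone. This ratio was chosen after the values were seen. ID4, the fourth gene of the family and no member of the group above, went the other way. ID4 (ENSG00000172201, plus strand of chromosome 6, 19837370 to 19842197) had 171.1, 236.5 and 208.8 normalized counts in KYSE450 and 381.1, 444.5 and 485.3 in KEAP1null-KYSE450 libraries, without overlap. It rose 2.13-fold (log2 fold change 1.09 with a standard error of 0.17, limma adjusted p = 2.1e-04), and fell short of the fold change threshold without KYSE450 library 1 (0.96) and after quantile normalization (0.94). Per kilobase of exons, ID4 remained the least abundant of the family, at 112.8 ± 13.6 in KEAP1null-KYSE450 cells against 206.8 ± 29.5 for ID2 (SD, n = 3 each). This gap depends on length, as all annotated exons cover 3873 bases for ID4 and 2213 for ID2. Without division by length, the means in KEAP1null-KYSE450 cells were 436.9 for ID4 and 457.7 for ID2, and the libraries of the 2 genes overlapped.

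FST (ENSG00000134363, plus strand of chromosome 5, 53480626 to 53487134) encodes follistatin, which binds activins tightly and also BMPs. It had 1590, 1294 and 1243 normalized counts in KYSE450 and 1091, 850.2 and 894.9 in KEAP1null-KYSE450 libraries. The lines did not overlap, and library 1 was the highest in each. FST fell by 0.54 on the log2 scale with a standard error of 0.13 (limma, adjusted p = 0.0048), a mean 1.46-fold lower, and its log2 fold change lay between -0.65 and -0.43 over 17 other settings. Of the activin and inhibin subunits, the ligand side of follistatin, INHBA reached at most 10.2 and INHBB at most 3.03 normalized counts in any library. INHA had 9.63, 26.3 and 21.4 in KYSE450 and 34.1, 39.8 and 22.2 in KEAP1null-KYSE450 libraries and did not pass (adjusted p = 0.17 from limma).

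**Figure D2:**
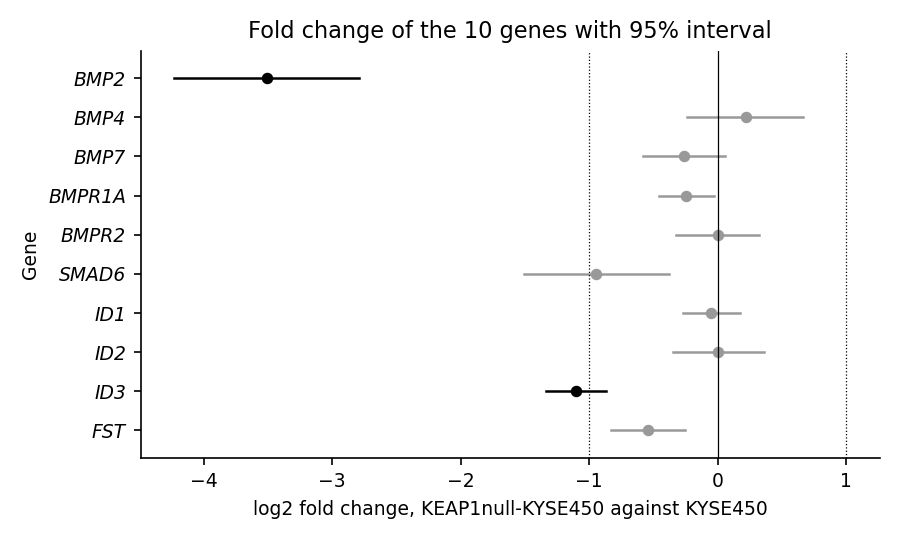
log2 fold change of the 10 genes in KEAP1null-KYSE450 against KYSE450 cells (3 libraries each), with the 95% interval from limma as a line, zero as a solid vertical line and the fold change threshold as dotted lines. Black marks BMP2 (-3.51) and ID3 (-1.10), which passed both thresholds, and grey the other 8, of which the intervals of SMAD6, FST and BMPR1A lie below 0.

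Levels per kilobase of annotated exons gave an order among the 10 genes. In KYSE450 cells it was ID1, ID3, BMP7, FST, BMPR1A, ID2, BMPR2, BMP2, BMP4 and SMAD6, from 2329 ± 63.8 down to 13.5 ± 1.52 normalized counts per kilobase (SD, n = 3 each). Neighbours whose libraries overlapped were BMP7 and FST, BMPR1A and ID2, and ID2 and BMPR2. In KEAP1null-KYSE450 cells ID1, ID3, BMP7 and FST again led, from 2260 ± 243 for ID1 to 343.5 ± 46.5 for FST. ID2, BMPR1A, BMPR2 and BMP4 followed, and SMAD6 (7.10 ± 1.82) and BMP2 (5.53 ± 2.78) came last, on the same scale. Here the overlapping neighbours were ID2 and BMPR1A, and SMAD6 and BMP2. The lengths are of all annotated exons, so genes with rarely used exons appear lower.

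The wider pathway was read from a list of 64 other genes, of which 38 passed the filter and 26 did not, 12 of these with every library at or below the floor. Of the 38, 13 passed both thresholds, 10 higher and 3 lower, beside backgrounds of 12.2% and 5.98% of all genes tested. The list was chosen with earlier results of these data known, so these counts are a description and no test of the pathway. By the adjusted p alone 15 were higher and 10 lower, beside 24.3% and 25.5% of all genes tested. The median log2 fold change of the 38 was 0.12, against 0.004 over all genes tested. A gene that enters the filter through only 1 of the lines had to differ, which applies to SOST, 1 of the 10 higher calls.

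**Figure D3:**
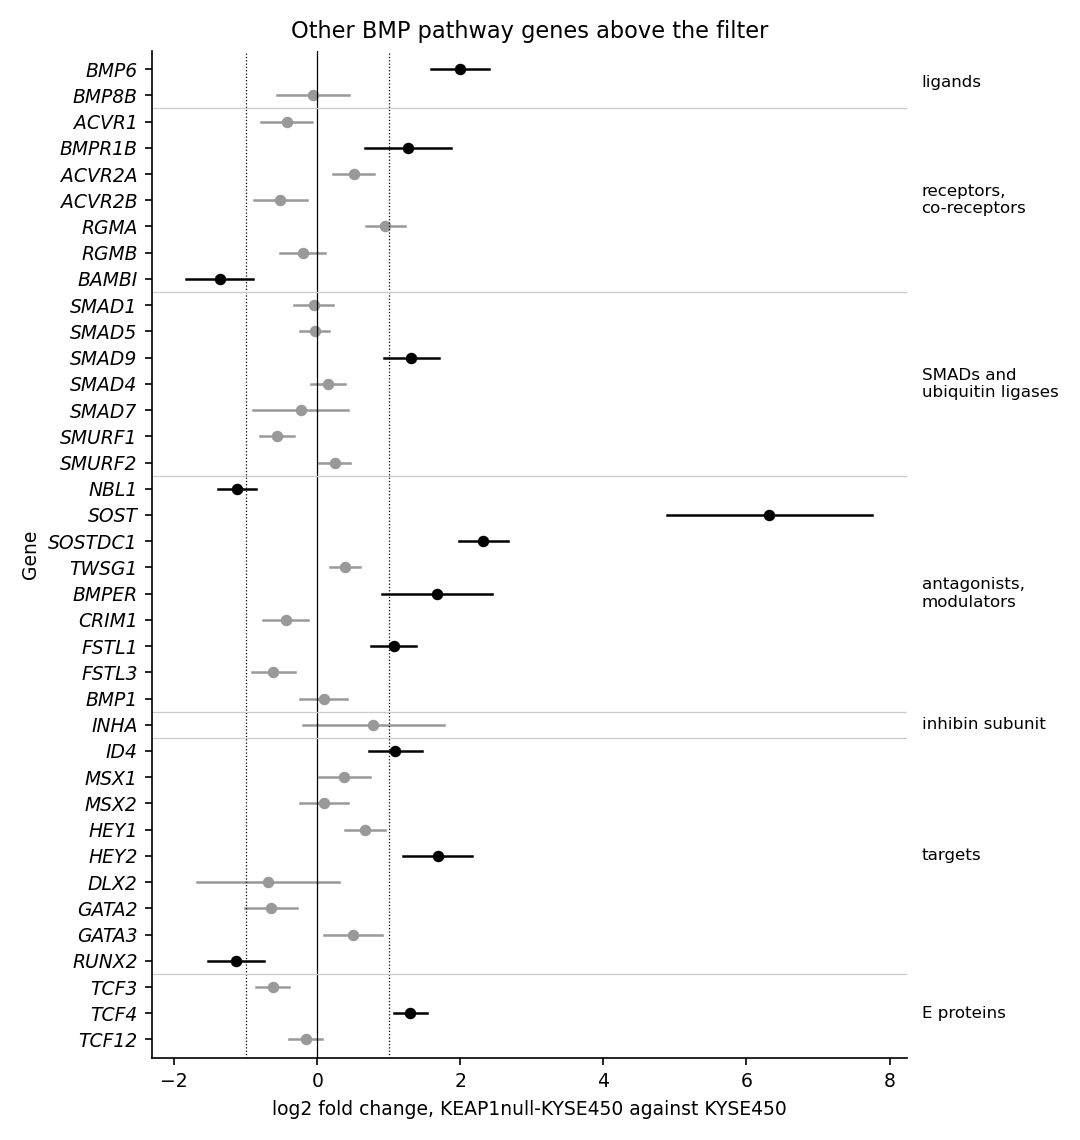
log2 fold change in KEAP1null-KYSE450 against KYSE450 cells (3 libraries each) of the 38 other pathway genes above the filter, grouped by role, with 95% intervals from limma, zero as a solid line and the fold change threshold dotted. Black marks the 13 genes past both thresholds, among which SOST (6.32) and SOSTDC1 (2.32) lie farthest to the right and BAMBI (-1.37) farthest to the left.

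Among 11 further ligand genes 2 could be tested. BMP6 (ENSG00000153162), which encodes a ligand of the BMP5 to BMP7 branch, rose 4.06-fold, from 149.7, 121.3 and 123.1 to 629.3, 414.9 and 553.9 normalized counts. Its log2 fold change was 2.00 with a standard error of 0.19 (limma, adjusted p = 3.0e-06). BMP6 shares exon sequence with TXNDC5 on the opposite strand, which had means of 56.5 and 38.6 normalized counts. The ratio of BMP2 to BMP6 per kilobase was 1.62, 1.86 and 1.84 in KYSE450 libraries and 0.052, 0.029 and 0.033 in KEAP1null-KYSE450 libraries. BMP2 was the more abundant of the pair in each KYSE450 library and BMP6 in each library of the clone. This pair was likewise chosen after the values were seen. BMP8B did not pass (log2 fold change -0.06), and BMP3, BMP5, BMP8A, BMP10, BMP15, GDF2, GDF5, GDF6 and GDF7 were below the filter.

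Of 10 further receptor and co-receptor genes, 7 were tested, 1 rose and 1 fell past both thresholds. BMPR1B, a second type I BMP receptor gene, had 84.5, 50.5 and 52.2 normalized counts in KYSE450 and 186.4, 153.9 and 112.0 in KEAP1null-KYSE450 libraries, a log2 fold change of 1.27 (adjusted p = 0.0022 from limma) that was 0.92 after quantile normalization. BAMBI, the gene of a decoy receptor that lacks a kinase domain, fell 2.61-fold, from 150.8, 169.8 and 141.7 to 61.8, 55.0 and 60.5 normalized counts (adjusted p = 2.2e-04 from limma). RGMA, a BMP co-receptor gene, had a log2 fold change of 0.95 (adjusted p = 5.8e-05 from limma), which was 1.07 without KYSE450 library 1. By the adjusted p alone ACVR2A rose and ACVR1 and ACVR2B fell.

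All 7 genes of the SMADs and SMAD ubiquitin ligases were tested, and only SMAD9 passed both thresholds. SMAD9, which encodes a BMP-activated SMAD, had 317.6, 313.4 and 199.5 normalized counts in KYSE450 and 682.8, 686.1 and 654.7 in KEAP1null-KYSE450 libraries. The lines were well apart, and the log2 fold change was 1.31 with a standard error of 0.18 (limma, adjusted p = 6.8e-05). The 95% intervals of the log2 fold changes of SMAD1 and SMAD5, which act on the same targets, were -0.32 to 0.21 and -0.24 to 0.17. SMAD7, a second inhibitory SMAD, did not pass (log2 fold change -0.23, adjusted p = 0.55 from limma). SMURF1, a ubiquitin ligase of BMP SMADs and receptors, fell by 0.56 on the log2 scale (adjusted p = 0.0010 from limma), and its exons overlap those of TRRAP on the opposite strand.

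Of 18 listed genes of extracellular antagonists and modulators 9 were tested, and 4 rose and 1 fell past both thresholds. SOSTDC1, the gene of a secreted BMP and WNT antagonist, had 130.5, 154.7 and 119.3 normalized counts in KYSE450 and 616.4, 693.2 and 719.3 in KEAP1null-KYSE450 libraries, 5.02-fold higher (log2 fold change 2.32, adjusted p = 1.6e-07 from limma). Its exons overlap those of ISPD on the same strand, which had means of 241.9 and 451.7. SOST, the gene of sclerostin, a related WNT antagonist, had 0, 10.1 and 2.80 normalized counts in KYSE450 and 337.7, 224.3 and 281.5 in KEAP1null-KYSE450 libraries. With a KYSE450 mean of 4.302, SOST passed the filter only through the clone, so its call, 1 of the 4 that rose, is no test of a difference. KYSE450 libraries 1 and 3 were at or below the floor. The log2 fold change of 6.32 therefore depended on the setting, between 4.39 and 7.59. It was 5.42 without KYSE450 library 1 and 7.16 without KYSE450 library 2.

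BMPER, the gene of a secreted BMP-binding protein, had 20.3, 14.2 and 16.8 normalized counts in KYSE450 and 42.4, 61.2 and 68.6 in KEAP1null-KYSE450 libraries, a log2 fold change of 1.68 (adjusted p = 0.0018 from limma, 0.063 from DESeq2 on 4 libraries). FSTL1, a follistatin-like gene, rose 2.11-fold (log2 fold change 1.07, adjusted p = 6.7e-05 from limma), and this was 0.99 without KYSE450 library 3 and 0.95 without KEAP1null-KYSE450 library 1. NBL1, the gene of a DAN-family BMP antagonist, fell 2.18-fold, from 1958, 1526 and 1620 to 859.1, 720.7 and 759.7 normalized counts (adjusted p = 1.4e-05 from limma), and it shares exons with MINOS1 on the same strand. TWSG1, which modulates BMP binding by chordin, rose by the adjusted p alone (log2 fold change 0.39, adjusted p = 0.0051 from limma). FSTL3 and CRIM1 fell by the adjusted p alone (log2 fold changes -0.614 and -0.445, adjusted p = 0.0026 and 0.024 from limma). NOG, GREM1 and CHRDL2, which include classical BMP antagonist genes, had no library above 4.04 normalized counts. CHRD, the gene of chordin, was below the filter, with 8.556, 6.065 and 9.324 in KYSE450 and 1.845, 0 and 12.11 in KEAP1null-KYSE450 libraries.

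Of 12 further listed target genes 9 were tested. ID4 (above) and HEY2 rose and RUNX2 fell past both thresholds. HEY2, a gene of a transcriptional repressor also driven by NOTCH, had 52.4, 60.6 and 49.4 normalized counts in KYSE450 and 151.3, 196.7 and 180.6 in KEAP1null-KYSE450 libraries (log2 fold change 1.68, adjusted p = 5.6e-05 from limma). RUNX2, an osteoblast transcription factor gene, had 438.5, 301.2 and 346.8 and then 159.6, 148.8 and 177.6 normalized counts (log2 fold change -1.14, adjusted p = 2.2e-04 from limma), and -0.996 without KYSE450 library 1. MSX1 and MSX2, well known BMP targets, did not pass (adjusted p = 0.073 and 0.64 from limma). HEY1 and GATA3 rose and GATA2 fell by the adjusted p alone.

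The genes of the E proteins, which ID proteins bind, also differed among themselves. TCF4 had 1664, 1568 and 1308 normalized counts in KYSE450 and 3870, 3680 and 3594 in KEAP1null-KYSE450 libraries, and rose 2.46-fold (log2 fold change 1.30 with a standard error of 0.11, limma adjusted p = 1.1e-06). TCF3 had 9115, 7116 and 7739 and then 5385, 4930 and 5156 normalized counts, and fell by 0.62 on the log2 scale (adjusted p = 3.5e-04 from limma), below the fold change threshold. TCF12 did not pass (log2 fold change -0.16, 95% interval -0.39 to 0.07). Per kilobase of exons TCF3 stayed the most abundant of the 3, at 1255 ± 161 in KYSE450 and 809.8 ± 35.7 in KEAP1null-KYSE450 cells, against 51.9 ± 6.32 and 127.4 ± 4.85 for TCF4 (SD, n = 3 each). The gap depends on length, as all annotated exons cover 29166 bases for TCF4 and 6368 for TCF3. Without division by length, the means in KEAP1null-KYSE450 cells were 5157 for TCF3 and 3715 for TCF4.

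**Figure D4:**
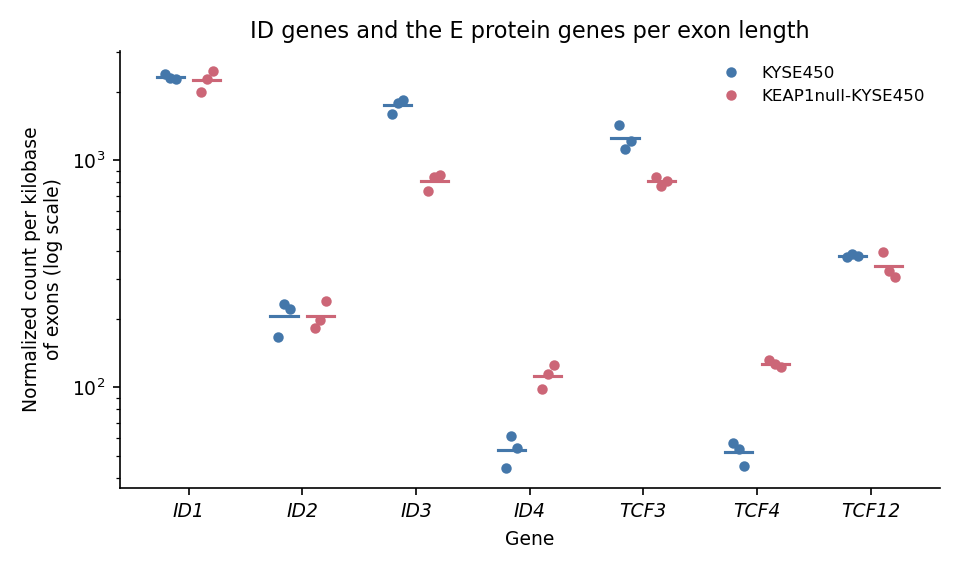
Normalized counts per kilobase of annotated exons, on a log axis, of the 4 ID genes and the 3 E protein genes, with 1 point per library (3 per line) and a bar at the mean. ID1 and ID2 overlap between the lines, ID3 and TCF3 are lower and ID4 and TCF4 higher in each KEAP1null-KYSE450 library.

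The position of the genes was compared with their surroundings, as the median log2 fold change of the 20 genes before and the 20 after each that had a mean of at least 100. Over all genes with that mean the median was -0.08. Around BMP2 it was -0.09, around ID3 -0.11, around SMAD6 0.04 and around FST -0.19. ID4, BMP6 and RUNX2 lie on chromosome 6, and their neighbours had medians of -0.50, -0.48 and -0.38. ID4 and BMP6 rose, and 28 and 29 of their 40 neighbours were lower. RUNX2 fell, and 30 of its 40 neighbours were lower. HEY2, elsewhere on chromosome 6, and BMPR1B on chromosome 4 rose among neighbours with medians of 0.242 and 0.215. Of their 40 neighbours 13 and 11 were lower. The neighbours of TCF3, which fell, had a median of -0.35, and 30 of the 40 were lower. The part of these surroundings in the results was not tested.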

How the data were processed

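RNA sequencing of 3 KYSE450 and 3 KEAP1null-KYSE450 libraries was analysed. The authors aligned reads to hg38 with STAR (version 2.6.90c), counted them per gene with featureCounts (version 1.5.1) and normalized the matrix, so each deposited value is a signal, the normalized count of a gene (its reads over a scaling factor of the library). The submitters' processing notes also name cutadapt (version 1.12) and FastQC (version 0.11.5). The methods name a RefSeq annotation, while rows carry Ensembl identifiers. Differential expression by the authors used DESeq2, and none of their values were used here.

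Values were tested in R (version 4.3.3) by limma (version 3.58.1), fitting log2(normalized count + 1) of all 6 libraries without covariates and moderating variances with a trend, for genes whose mean reached 10. Tests were two-sided with Benjamini-Hochberg adjustment. Calls needed an adjusted p below 0.05 plus a log2 fold change of 1 or more in either direction. In all 6 libraries 100% of values came out as whole reads within 0.1 of a read. Recovery was accepted for 4 libraries (KYSE450 1 and 3, KEAP1null-KYSE450 1 and 2), with 53027359 to 61543442 reads per library. edgeR (version 4.0.16) and DESeq2 (version 1.42.0) were run on these as alternatives, and called 2698 and 2500 genes. The value of 1 read in the other 2 was too close to 1 to accept recovery. The scripts were tested on simulated data. Positions, exon lengths and overlaps came from gencode v44 of hg38, which holds 16630 of the 16701 tested identifiers.

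Members and lists were chosen with earlier results of these data known. By rule the text names the 10 members, KEAP1, NFE2L2, NQO1 and each gene of the pathway list past both thresholds. The rule also takes the tested gene of each role with the highest mean normalized count over all libraries (not per length). Other genes of the list, such as SMAD1, SMAD5, MSX1 and MSX2, are named by no fixed rule. The settings varied were the pseudocount (0.1, 10), the filter (none, or a mean reaching 100), equal totals, quantile normalization, each library left out, the call rule (adjusted p alone, or limma's treat with a null fold change of 2), moderation lacking a trend, edgeR and DESeq2.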

Additional observations from a re-analysis of the deposited data

How the results depend on the processing

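The 10 genes held 2 calls, both lower, and these numbered 2 to 3 when each library was left out, 1 in a test against a fold change of 2 (BMP2) and 4 without a fold change cutoff. The other pathway genes held 13 calls, or 12 to 14 with each library left out. They held 3 in the test against a fold change of 2 (BMP6, SOSTDC1 and SOST) and 25 without the cutoff. SOST, included in all of these pathway counts and in the higher calls, passed the filter only through the clone. Its call is therefore no test of a difference in any of these settings. Among the pathway calls 10 of 13 (76.9%) were higher, and 8 of 12 (66.7%) after quantile normalization. The shares of higher calls among all genes called were 67.2% and 51.8% in the same settings. Over all genes 3044 were called, 2645 to 3064 with each library left out, 1558 among genes whose mean reached 100, 1021 in the test against a fold change of 2 and 8311 without the cutoff. Of 541 values of the 32 genes named by rule under 17 alternatives, 494 kept their direction and their side of the thresholds. In the test against a fold change of 2, 11 genes lost their call.

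Signs turned for genes whose 95% interval included 0. BMP4 was -0.091 after quantile normalization. BMPR2, at 5.3e-05, was -6.3e-06 with a pseudocount of 10, -0.0031 with DESeq2, and lay between -0.11 and 0.17 with each library left out. ID1 was 0.072 after quantile normalization and lay between -0.120 and 0.035 with each library left out. ID2 was -0.082 after quantile normalization, -0.024 with DESeq2 and between -0.14 and 0.10 with each library left out. KEAP1 was 0.016 with equal totals, 0.135 after quantile normalization and between -0.072 and 0.040 with each library left out. The cause was not tested. edgeR and DESeq2 could use only 2 libraries per line.

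No paired analysis was possible because the columns of the matrix carry no replicate numbers. At this depth genes at or below about 3 normalized counts could not be told from absent.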
